A study of Mus musculus with 6 samples.

Results

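The regions described are 2902 ATAC-seq peaks of middle strength that were called in Mixl1 knockout (KO) cells at places where the other peak list of the study, named FM, had no peak. A peak entered when it lay on an autosome of the KO list, when the −log10 of its q-value was at least 10 and below 20, and when no base of it lay in an FM peak. The 2902 KO-only peaks were 15.8% of the 18384 autosomal KO peaks in that range (exact binomial 95% interval 15.3 to 16.3%). Among all 138130 autosomal KO peaks the share without an FM peak was 27.5%. The regions were thus selected on their q-value in the KO list and on the missing FM peak, so these shares describe the choice and are no result about it. Chromosomes 12, 15 and 18 stood apart in earlier results from these data, and leaving them out gave 2178 of 14798 peaks, which is 14.7%. They were set beside the 5935 FM-only peaks of the same range, which are 20.6% of 28762 FM peaks of that range (50.9% of all autosomal FM peaks had no KO peak), and the 15482 KO peaks of the range that did meet an FM peak, called shared KO peaks.

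Both lists come from mouse epiblast stem cells that were differentiated for 2 days as embryoid bodies in serum. The KO group holds 3 libraries of Mixl1 knockout cells. The other group holds 3 libraries of Mixl1-inducible cells that received 1 µg/mL doxycycline for 24 h, and no doxycycline is recorded for the knockout cells. Each library was made from 50000 cells with 11 PCR cycles. The FM list was assigned to the induced group by elimination, since no label explains the letters, and the text keeps the name FM. Knockout and induction, doxycycline and the 2 cell lines change together, so their effects cannot be told apart. The labels do not say which part of Mixl1 was altered, how many clones were used, what drives the inducible gene or whether the 3 libraries of a group were separate cultures. With 1 peak list per group there is no replicate error, and no test between the groups was possible. The intervals given cover counting error only.

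ATAC-seq maps open chromatin with the transposase Tn5, which inserts adapters where DNA is not wrapped around nucleosomes. Open regions at gene starts are often shared among cell types, whereas distal open regions, many of them enhancers, differ more between cell states. Mixl1 is a paired-class homeodomain factor of the primitive streak, the structure from which mesoderm and endoderm arise, and it acts downstream of Nodal and BMP signals in forming mesendoderm. Genes of primed epiblast cells had open ends in both lists: 7 of 8 markers had a peak within 1 kb of a gene end in the KO list, as did 7 of 8 in the FM list, and Otx2 had none in either. Of 5 early streak markers, 4 had such a peak in the KO list and 4 in the FM list, and Sp5 had none in either. Of 8 fibroblast markers, which could come from feeder cells, 5 had such a peak in the KO list and 5 in the FM list, while Postn, Lum and Dcn had none in either. Of 7 extraembryonic markers, 4 had one in the KO list and 5 in the FM list. The part of such cells in the results below was not tested. How many of all genes had such a peak was not counted, so these counts do not show which cells were present.

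Few of the KO-only peaks reached a promoter. Windows from 250 bases before to 50 bases after a RefSeq gene start (GRCm38.p6) were used for 18 of the 19 autosomes. On those, 52 of 2730 KO-only peaks (1.90%) touched a window, against 2.06% of FM-only and 7.96% of shared KO peaks. The 52 peaks met 56 windows of 53 genes, of which 33 windows belong to protein-coding genes. Shown here are the 250 bases before the start at 6 of these genes, chosen after the peaks were known to show single-copy, multi-copy and imprinted loci. Capitals mark matches on either strand to 7 short motifs named below. Fabp7 encodes a fatty acid binding protein of radial glia (chr10:57784673-57784922, plus strand), and Scg2 encodes secretogranin II of neuroendocrine vesicles (chr1:79440027-79440276, minus strand). Serpina1d (chr12:103773634-103773883, minus strand) and Serpina1c (chr12:103904951-103905200, minus strand) are copies of the gene for alpha-1 antitrypsin, a protease inhibitor made by the liver. Snrpn (chr7:60005200-60005449, minus strand) encodes a small nuclear ribonucleoprotein and is expressed from the paternal allele, and Meg3 (chr12:109540746-109540995, plus strand) is a long noncoding RNA expressed from the maternal allele.
Fabp7: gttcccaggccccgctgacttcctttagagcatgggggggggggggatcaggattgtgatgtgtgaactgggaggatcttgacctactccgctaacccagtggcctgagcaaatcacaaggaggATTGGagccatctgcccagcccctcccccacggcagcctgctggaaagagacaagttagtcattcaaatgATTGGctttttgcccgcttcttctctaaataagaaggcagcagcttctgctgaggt
Scg2: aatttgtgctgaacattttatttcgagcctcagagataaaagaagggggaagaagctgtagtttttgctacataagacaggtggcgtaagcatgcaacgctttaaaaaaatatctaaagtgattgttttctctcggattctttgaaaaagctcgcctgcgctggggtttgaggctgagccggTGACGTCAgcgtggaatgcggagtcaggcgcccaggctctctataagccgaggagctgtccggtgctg
Serpina1d: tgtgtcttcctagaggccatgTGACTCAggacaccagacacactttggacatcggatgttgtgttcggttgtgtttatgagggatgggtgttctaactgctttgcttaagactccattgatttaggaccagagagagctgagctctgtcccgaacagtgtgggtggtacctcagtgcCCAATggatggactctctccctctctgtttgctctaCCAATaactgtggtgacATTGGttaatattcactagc
Serpina1c: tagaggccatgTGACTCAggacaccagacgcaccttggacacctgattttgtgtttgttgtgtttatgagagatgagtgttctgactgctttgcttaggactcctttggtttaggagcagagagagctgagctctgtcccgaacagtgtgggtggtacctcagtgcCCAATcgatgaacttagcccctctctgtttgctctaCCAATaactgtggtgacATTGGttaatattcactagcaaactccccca
Snrpn: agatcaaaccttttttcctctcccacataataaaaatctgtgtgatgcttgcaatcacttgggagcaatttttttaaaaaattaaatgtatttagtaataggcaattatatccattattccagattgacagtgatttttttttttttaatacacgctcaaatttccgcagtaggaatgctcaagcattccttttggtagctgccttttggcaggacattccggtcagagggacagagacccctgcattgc
Meg3: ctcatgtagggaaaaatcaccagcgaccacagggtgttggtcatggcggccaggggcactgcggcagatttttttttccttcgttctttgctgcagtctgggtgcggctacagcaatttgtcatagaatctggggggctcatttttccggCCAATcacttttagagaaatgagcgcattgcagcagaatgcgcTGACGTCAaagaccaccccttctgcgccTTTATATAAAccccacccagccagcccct

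CCAAT boxes, read as CCAAT or as ATTGG on the other strand, are in capitals in Fabp7, in both Serpina1 copies and in Meg3, where overlapping TATAAA letters also stand near the end. Snrpn has none of the 7 motifs in this stretch. The 2 Serpina1 windows match at 265 of 289 aligned bases (91.7%) and share the TGACTCA and the 3 CCAAT boxes. No source used here says how reads that fit several copies were placed, so peaks at these copies are uncertain. Scg2 and Meg3 are the 2 of 56 windows (3.57%) with the palindrome TGACGTCA, the cyclic AMP response element, a motif added after the windows had been read. It occurs in 1.83% of all 31396 windows on these 18 autosomes. The other motifs were searched on both strands as well. CCAAT was in 20 of the 56 windows (35.7%) and in 37.3% of all windows, and the GC box GGGCGG was in 13 (23.2%) and in 36.0% of all. TGANTCA, the AP-1 letters, was in 5 windows (8.93%) against 7.84% of all, and TATAAA was in 5 (8.93%) against 13.6% of all. The octamer ATGCAAAT was in 2 (3.57%) against 1.75% of all. The dimer site of paired-class homeodomains, TAAT and ATTA with any 3 bases between them, was in 0 of 56 windows and in 0.503% of all windows. Taking 3 as the largest count that 0 may stand for allows a share of up to 5.36%, which is not an exact binomial limit. Windows met by KO-only peaks had a median GC content of 50.2%, those met by FM-only peaks 54%, those met by shared KO peaks 58% and all windows 53%. At least 10 CpG pairs stood in 30.4% of the KO-only windows, in 30.0% of the FM-only windows, in 52.7% of the shared windows and in 44.0% of all windows. The windows of KO-only and FM-only peaks thus lay close in CpG content, and both lay below the shared ones and below all windows.

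The 6 peaks at these starts were all called in the KO list with no FM peak touching them. Fabp7 had a fold of 3.18 at a pileup of 94 fragments, with the nearest FM peak 709 bp away. Scg2 had a fold of 3.12 at 92 fragments, and its nearest FM peak was 72505 bp away. Serpina1d had a fold of 3.02 and Serpina1c of 2.88, at 89 and 85 fragments. At the Snrpn start, which it shares with Snurf, the peak chr7:60005030-60005262 had a fold of 2.98, and an FM peak lay 193 bp from it. At Meg3 the peak chr12:109540742-109541115 had a fold of 1.79 with 232 fragments over a background of 129, and a further KO-only peak lay 1199 bp past the start, at chr12:109542001-109542376, with a fold of 1.81. The local background at Meg3 was thus more than at Fabp7, where it was 28.8 fragments, and the low fold there went with a high pileup.

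On the same 18 autosomes 2 KO-only peaks lay over a microRNA hairpin (0.0733%, 0.00887 to 0.264%), against 0.154% of FM-only and 0.154% of shared KO peaks, and the interval holds both of those shares. Both hairpins are on chromosome 12, and their mature sequences follow with the seed (bases 2 to 8) in capitals. The hairpin of Mir3067 (chr12:81166151-81166234, plus strand) was under a peak of fold 2.19, and that of Gm51267 (chr12:104269206-104269253, minus strand) under a peak of fold 2.31.
mmu-miR-3067-5p: aGUUCUCAggcccgcuguggugu
mmu-miR-3067-3p: cCAAGCGGcugcccugggagagg
mmu-miR-12183-5p: gCUUCUUCucuguccuga

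The 3 seeds differ from each other. Within 1 kb of a further hairpin lay 3 more peaks, near Mir1188, Mir7677 and Mir92b.

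The peak caller's fold compares the fragments stacked at the summit with the local background, and both numbers can be recovered from the fold and the p-value. KO-only folds ran from 1.64 to 3.22 with a median of 2.58, and pileups from 75 to 295 fragments with a median of 88. The median background was 30.9 fragments under KO-only peaks, 34.4 under FM-only peaks and 38.1 under shared KO peaks. At 1232 KO-only peaks (42.5%) the background was the genome-wide one of 28.8 fragments, as it was at 28.2% of FM-only and 19.8% of shared KO peaks. At that background the KO list called pileups from 46 fragments upward, and the FM list from 45 upward at its own 28.6. KO-only peaks were narrow, at a median of 322 bp, against 367 bp for FM-only and 528 bp for shared KO peaks. Several summits were present in 14.8% of KO-only, 19.4% of FM-only and 39.4% of shared KO peaks. KO-only peaks were therefore mostly simple, narrow peaks over a low background. A wider interval has more bases that can meet an FM peak, so the selection rule itself favours narrow peaks. Its part in the differences of width and summits from shared KO peaks was not tested.

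The q-value range fixes the strongest possible fold at a given background, so the ranking by fold has ties. The 12 highest peaks all had a fold of 3.22 with 95 fragments. They include peaks inside Rims2, a presynaptic scaffold gene, inside Rbfox1, a neuronal splicing regulator, inside Rabgap1l, and 2.93 kb from Il17f, which encodes an inflammatory cytokine. The one at chr1:100738788-100739031 had no protein-coding gene within 100 kb and its nearest FM peak 558 kb away. The one near Nmi had an FM peak 79 bp away. With chromosomes 12, 15 and 18 left out, peaks at Wdfy4 (3.19), Fabp7, Uxs1 and Raet1d (3.18 each) took the freed places. The last 3 are the first of 19 peaks that tie at 3.18, with chromosome names sorted as text rather than by number. Just inside the lower limit were peaks of −log10 q 10.003, 10.0043 and 10.0051, and just outside it 3 of 9.99886. Just inside the upper limit were 19.9968, 19.9928 and 19.9674, and just outside it 20.0169, 20.069 and 20.0709, so the limits cut through a continuous series.

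KO-only peaks were mostly away from gene ends, and more of them than in either other set were far from any protein-coding gene. Summits within 1 kb of a gene end made up 5.96% (5.13 to 6.89%), against 5.81% of FM-only and 11.2% of shared KO peaks. Gene bodies held 42.5% of KO-only peaks, 54.0% of FM-only peaks and 46.9% of shared KO peaks. Intergenic positions held 51.6% (49.7 to 53.4%) of KO-only peaks, 40.2% of FM-only and 41.9% of shared KO peaks. The nearest protein-coding gene was over 100 kb away for 359 KO-only peaks (12.4%), against 5.63% of FM-only and 5.24% of shared KO peaks. Without chromosomes 12, 15 and 18 the KO-only shares were 6.15% at gene ends, 42.8% in gene bodies, 51.1% intergenic and 10.6% over 100 kb away.

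**Figure D1:**
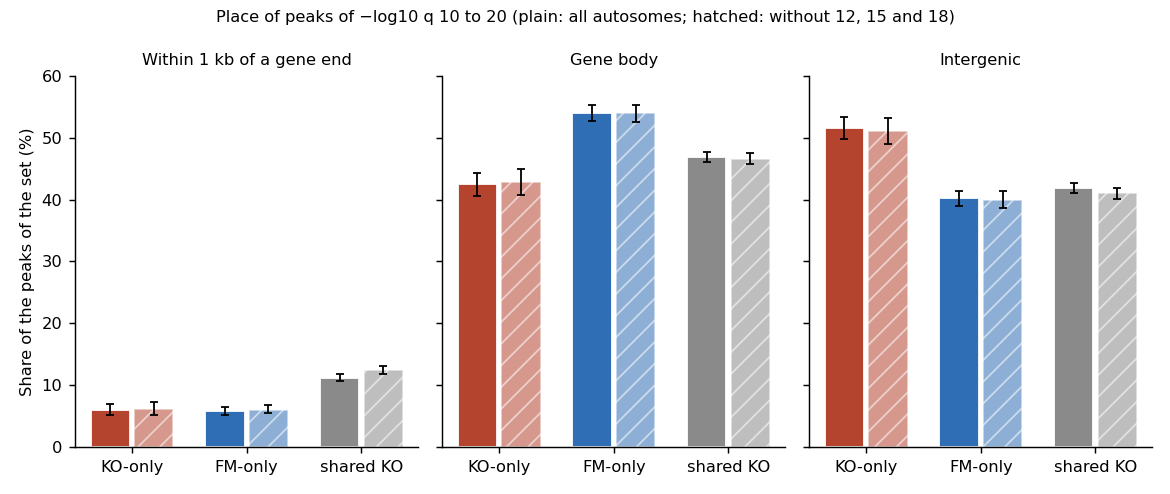
Share of peaks in percent by place for KO-only, FM-only and shared KO peaks of −log10 q 10 to 20, over all autosomes and without chromosomes 12, 15 and 18, with exact binomial intervals. Intergenic positions hold 51.6% of KO-only, 40.2% of FM-only and 41.9% of shared KO peaks.

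The distance to the other list was spread widely. The median KO-only peak was 1925 bp from the nearest FM peak, with a 10th percentile of 245 bp and a 90th of 33495 bp. FM-only peaks had a median of 2372 bp to the nearest KO peak and a 90th percentile of 14573 bp. Within 1 kb of the other list were 35.0% of KO-only and 30.0% of FM-only peaks, and within 100 kb were 95.6% of KO-only and 99.3% of FM-only peaks. KO-only peaks were thus more common than FM-only ones at both the near and the far end. The KO list has 138130 autosomal peaks and the FM list 204650, and a longer list lies nearer to any given place. The closest KO-only peak, near the nuclear lamina gene Lmna, lay 10 bp from an FM peak, and the farthest, chr1:48881484-48881696 with a fold of 2.78, lay 2027 kb from one.

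**Figure D2:**
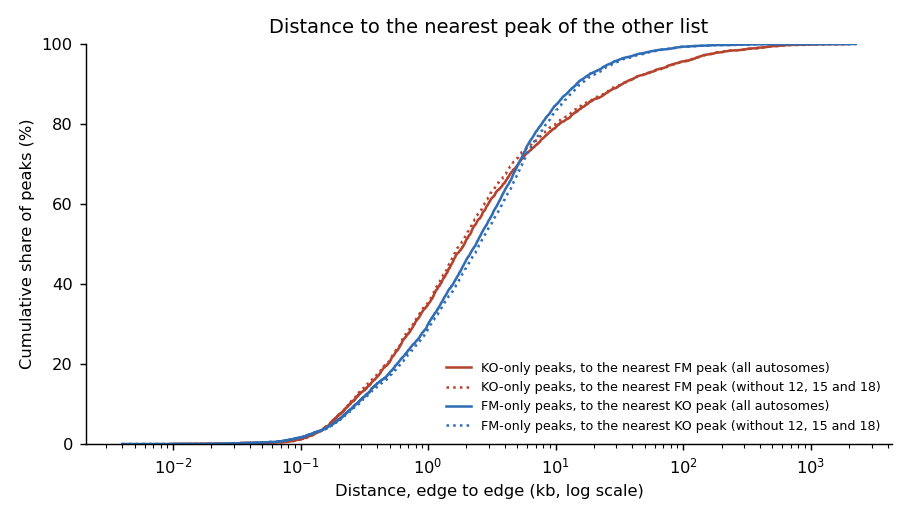
Cumulative share of peaks in percent against distance to the nearest peak of the other list in kb on a log axis, for KO-only and FM-only peaks of −log10 q 10 to 20. The curves cross: 35.0% of KO-only and 30.0% of FM-only peaks lie within 1 kb, and 95.6% and 99.3% of them within 100 kb.

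By chromosome, chromosomes 15 and 18 had the highest KO-only shares, and chromosome 12 held as many KO-only peaks as chromosome 15 at an ordinary share. On chromosome 15, 276 of 1177 KO peaks of the range had no FM peak (23.4%, 21.1 to 26.0%). On chromosome 18 there were 172 of 751 (22.9%, 19.9 to 26.1%), and on chromosome 12 there were 276 of 1658 (16.6%, 14.9 to 18.5%). The other 16 autosomes ran from 10.8% on chromosome 7 to 18.3% on chromosome 3, with a median of 15.3%. Chromosome 15 had 276 KO-only and 149 FM-only peaks, a ratio of 1.85, and chromosome 18 had 172 and 102, a ratio of 1.69. Chromosome 12 had 276 KO-only and 493 FM-only peaks, a ratio of 0.560, which lay within the 0.286 to 0.627 of the other 16. Together the 3 chromosomes held 24.9% of KO-only peaks (23.4 to 26.6%), 12.5% of FM-only and 18.5% of shared KO peaks.

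At strong shared peaks, with −log10 q reaching 50 in each list, the median ratio of the KO to the FM pileup moved with this pattern. It was 1.56 on chromosome 15, 1.48 on chromosome 18 and 1.33 on chromosome 12, against 1.21 to 1.32 on the other 16 autosomes and 1.27 over all 6900 pairs. The part of this chromosome-wide difference in the KO-only counts was not tested. The KO-only counts are given with and without these chromosomes for that reason.

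KO-only peaks were mostly single, with a small number of dense groups. Linking summits at most 50 kb apart gave 2494 chains, of which 2186 were single peaks, 249 pairs, 44 triples and 15 chains of 4 or more that held 86 peaks. Another KO-only peak lay within 50 kb of 24.7%, while 45.1% of FM-only and 74.5% of shared KO peaks had one of their own kind as near, measures that rise with the size of each set. A measure that allows for local peak density is the KO-only share among neighbouring KO peaks of the range. Within 10 kb of a KO-only peak 25.6% of such neighbours were KO-only (300 of 1170), against 12.6% around shared KO peaks. Within 50 kb the shares were 20.2% and 12.7%, and within 500 kb 17.6% and 12.9%. Leaving out chromosomes 12, 15 and 18, they were 24.7% and 12.2% at 10 kb, and 16.2% and 11.9% at 500 kb. The difference between the surroundings was thus widest at the shortest distance, with or without those chromosomes.

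Weaker peaks, with −log10 q below 10, were more often KO-only around KO-only peaks than around the other sets. Of weak peaks found in a single list within 500 kb, the median KO-only share was 28.6% around KO-only peaks, 21.5% around FM-only and 23.6% around shared KO peaks. Pooled over all autosomes, 26.0% of such weak peaks were KO-only. Without chromosomes 12, 15 and 18 the medians lay closer together, at 23.9% around KO-only, 20.5% around FM-only and 21.9% around shared KO peaks, with a pooled share of 23.3%. KO-only weak peaks were in the majority around 17.1% of KO-only peaks, 1.86% of FM-only and 5.56% of shared KO peaks. Outside those chromosomes the majority held around 9.51% of KO-only, 0.877% of FM-only and 2.70% of shared KO peaks. In windows of 5 Mb, the most KO-only peaks were on chromosome 12 from 100 to 105 Mb (48), then on chromosome 15 from 35 to 40 Mb and chromosome 4 from 145 to 150 Mb (31 each). By share, among the 312 of 492 windows with at least 20 KO peaks of the range, the window of chromosome 14 from 15 to 20 Mb was highest, with 11 of 20 KO peaks of the range KO-only (55%).

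The 8 largest chains had 6 to 9 peaks each, and 2 of them spanned no protein-coding gene. The largest, chr8:20526838-20662125, had 9 KO-only peaks of fold 1.99 to 2.98 next to Gm40469 and Gm21119, and a second on the same chromosome, chr8:20340139-20441181, had 7 at Gm15319. In the first, 21 of 46 KO peaks of any strength were KO-only, and the FM list had 30 peaks, 5 of them FM-only. In the second, 10 of 29 KO peaks were KO-only, and the FM list had 21 peaks, 1 of them FM-only. The Serpina1 chain, chr12:103710411-103774061, had 8 peaks of fold 1.97 to 3.02 at Serpina1b and Serpina1d. Of all 26 KO peaks of any strength in it 23 were KO-only, and the FM list had 3 peaks there, all shared. On the same chromosome chr12:101130304-101312737 had 7 peaks, with 27 of 33 KO peaks KO-only and 4 FM-only peaks. At chr4:147199472-147280685 all 6 peaks lay inside Zfp978, annotated as a zinc finger gene, and 11 of 15 KO peaks were KO-only. The chain at chr5:15548986-15661981 had 6 peaks at Gm21083 and Speer4d, a gene of the Speer family, and 21 of 33 KO peaks were KO-only beside 14 FM peaks.

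The chains of 6 peaks on chromosome 13 lay among histone genes or had a histone gene as the nearest for part of their peaks. One, chr13:23500497-23583045, spans 14 core and linker histone genes, among them H1f3 and H2ac10, and 7 of 25 KO peaks in it were KO-only while 18 FM peaks were present. In the other, chr13:21881860-21941013, no protein-coding gene lay in the span. H4bc24 was the nearest gene of 3 of its peaks, at 44.5 to 45.4 kb. In that span 11 of 18 KO peaks were KO-only, with no FM-only peak. Without chromosomes 12, 15 and 18, the 8 largest chains also took in chr4:135548162-135615778, with 5 peaks at Grhl3, and chr11:3104598-3211632, with 5 at Sfi1, Gm51877 and Eif4enif1. At Grhl3 9 of 15 KO peaks were KO-only, and 6 of 12 FM peaks were FM-only. At Sfi1 12 of 35 KO peaks were KO-only, and 7 of 32 FM peaks were FM-only. Among 1906 chains outside those 3 chromosomes, 10 had 4 or more peaks. Several of these genes belong to families of similar copies, among them Serpina1, the histones and Speer. Where copies are near-identical, the copy a peak belongs to is uncertain.

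**Figure D3:**
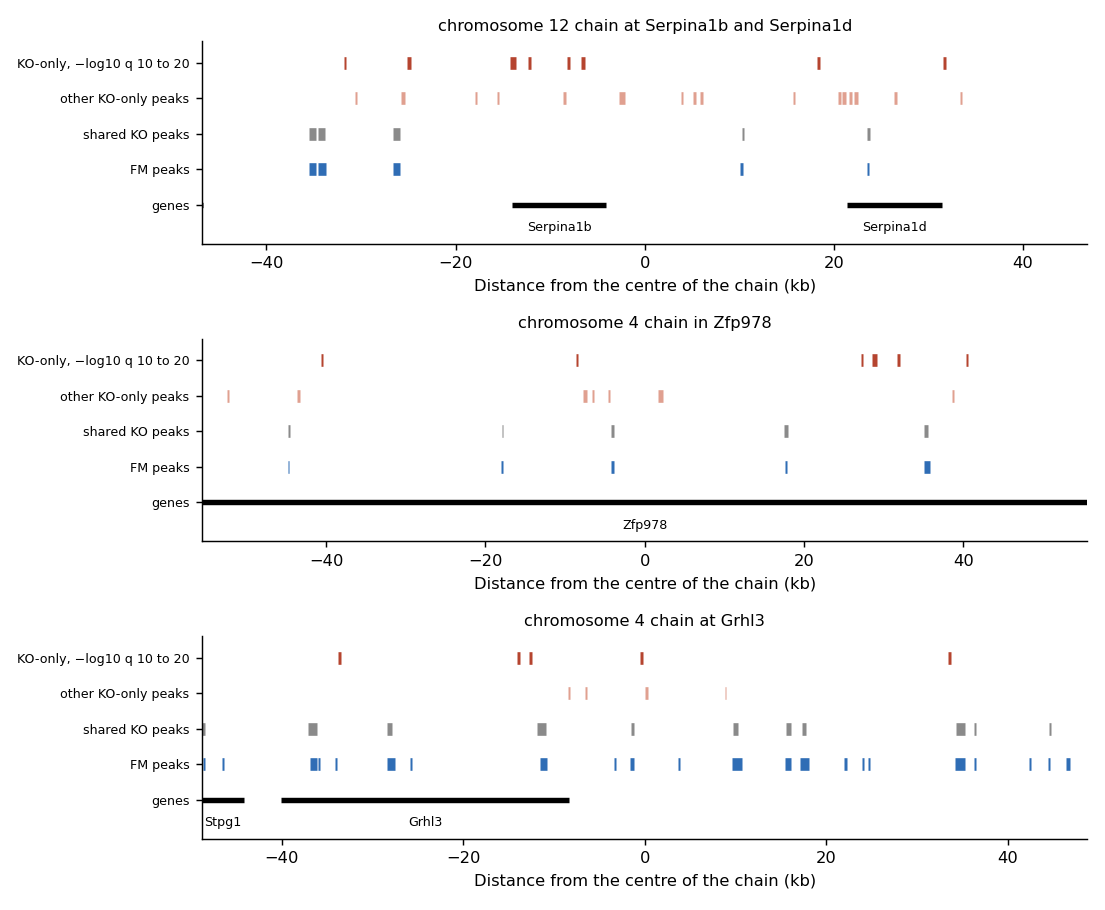
Peaks of both lists across 3 of the named chains and their flanks (Serpina1b and Serpina1d, Zfp978, Grhl3), by distance in kb from the middle of the chain; the rows hold the KO-only peaks described here, other KO-only peaks, shared KO peaks, FM peaks and genes. Within the Serpina1 chain, flanks aside, 23 of 26 KO peaks are KO-only and the FM list has 3. In the Zfp978 chain 11 of 15 are KO-only and the FM list has 4, and in the Grhl3 chain 9 of 15 are KO-only and the FM list has 12.

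Assigning each peak to the nearest protein-coding gene within 100 kb gave 2130 genes with a KO-only peak, 10.3% of 20665. FM-only peaks gave 4012 genes (19.4%) and shared KO peaks 7734 (37.4%). Of the 2130 genes, 1774 had 1 KO-only peak, 267 had 2, 70 had 3 and 19 had 4 or more. A shared KO peak of the range was also assigned to 1341 of them, an FM-only peak to 702, and neither to 658. The share of all 20665 genes with neither was not counted, so the 658 are not read as a separate set. The 2130 genes were long, with a median of 48.0 kb, against 41.8 kb for genes with an FM-only peak, 31.2 kb for those with a shared KO peak and 17.5 kb for all genes. Outside chromosomes 12, 15 and 18 there were 1653 of 18699 genes (8.84%).

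Outside the developmental and other gene lists used below, Gm15319 had the most KO-only peaks, 9, with 1 FM-only and 8 shared KO peaks. Rims2 had 7, all inside the gene and of fold 2.52 to 3.22, with 0 FM-only and 1 shared KO peak. Zfp978 had 7, also all inside, with 1 FM-only and 4 shared KO peaks. Greb1l had 6, with 1 FM-only and 8 shared KO peaks, and Gm21119 had 6, with 1 FM-only and 4 shared KO peaks. Serpina1b, Grhl3, which encodes a transcription factor of the surface ectoderm and epidermis, and Zhx2, a zinc finger and homeobox repressor, had 5 each. In that order their FM-only counts were 0, 1 and 0, and their shared KO counts 1, 3 and 6. Arhgap21, Zfp993, Catsperb, a subunit of a sperm calcium channel, and Nav2, a neuron navigator gene, had 4 each. Their FM-only counts were 1, 0, 0 and 5, and their shared KO counts 1, 3, 1 and 8, so Nav2 had more FM-only than KO-only peaks. Of these 12 genes, Rims2, Zhx2, Serpina1b and Catsperb lie on chromosomes 12 and 15 and Greb1l on chromosome 18. Without those chromosomes Sfi1, Rnf144b and Gm10406 came in with 4 peaks each and Rbfox1 and H4bc24 with 3 each. In that order they had 3, 2, 0, 2 and 0 FM-only peaks, and 0, 7, 7, 4 and 0 shared KO peaks.

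At single gene ends the strongest KO-only peaks were those of Fabp7 and Gm5784 (3.18 each), Scg2 and Gm40363 (3.12 each), Gm26637 with Sult6b1 (3.09), Gm13275 (3.08) and Cbln2 (3.06), which encodes a synaptic organiser. Pla2g12b, Serpina1d, Acnat1 and Gm38699 followed at 3.02 each, and Snrpn with Snurf at 2.98. No gene of the developmental lists described next was among them.

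Among developmental genes, those of the primitive streak, neurectoderm and Wnt lists most often had a KO-only peak, and 1 of the 71 peaks at listed genes was within 1 kb of a gene end. The lists, of 305 genes in 15 groups with some genes in more than 1 group, were chosen with results of these data known, and their counts are descriptions. Folds of KO-only peaks stand in brackets. Over all lists 64 of 296 autosomal genes had a KO-only peak, and 94 had an FM-only peak. KO-only peaks were 71 of 532 KO peaks of the range there (13.3%), against 14.9% at all protein-coding genes. As these genes have more peaks of every kind than most, the share of KO peaks that were KO-only is given with the counts of genes. On the other 16 autosomes 55 of 257 genes had a KO-only peak and 83 an FM-only peak.

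Of 22 genes of the primitive streak and mesendoderm, 10 had a KO-only peak and 3 an FM-only peak, and 11 of 52 KO peaks were KO-only (21.2%). None of the 10 lies on chromosomes 12, 15 or 18. Eomes, a T-box factor needed for endoderm and mesoderm, had 2 KO-only peaks 72.0 and 73.0 kb away, of fold 2.86 and 2.49. T (Brachyury), the T-box factor of mesoderm and notochord, had 1 peak 5.38 kb away with a fold of 2.69 and the nearest FM peak 4152 bp from it. Mixl1 itself had a peak of fold 2.27 at chr1:180707335-180707765, 10.6 kb away, and an FM peak lay 126 bp from it. Nodal, the ligand that sets up the streak, had 1 peak 11.6 kb away (2.44). Evx1, a homeobox gene of the posterior streak, had 1 peak 1.93 kb away (2.14), and Lhx1, a LIM homeobox gene of the anterior streak, had 1 peak 13.4 kb away (2.44). Sp5, a zinc finger target of Wnt signalling, had 1 peak 13.7 kb away (2.81). Wnt5a, a Wnt ligand, had a peak inside the gene (2.07). The Wnt target Axin2, which feeds back on the pathway, had 1 peak 20.1 kb away (2.31), and Lef1, a nuclear partner of beta-catenin, had 1 peak 89.0 kb away (2.70). Besides Mixl1, an FM peak lay within 1 kb of the peaks at Wnt5a (424 bp), Lhx1 (431 bp), Sp5 (513 bp) and 1 of those at Eomes (868 bp). The peak at T was the farthest of the 11 from an FM peak, and the others lay 1188 to 1881 bp from one. The KO-only label here thus often means an FM peak close by that shares no base. At the gene ends themselves the lists gave other folds: T had 4.12 in the KO list and 2.51 in the FM list, Eomes had 1.82 in the KO list and 4.43 in the FM list, and Mixl1 had 2.97 in the KO list and 4.26 in the FM list. The gene ends of Eomes and Mixl1 thus had the lower fold in the KO list, with the KO-only peaks 10.6 to 73.0 kb away. These folds come from lists called separately.

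The definitive endoderm, mesoderm and pluripotency lists had similar KO-only shares of KO peaks, each resting on 2 to 4 KO-only peaks. These shares ran from 6.67 to 9.30%, against 14.9% at all protein-coding genes. Of 21 definitive endoderm genes 2 had a KO-only and 5 an FM-only peak, and 2 of 30 KO peaks were KO-only (6.67%). They were Gata6, an endoderm GATA factor on chromosome 18, with a peak 11.7 kb away (2.55), and Krt8, a simple-epithelium keratin on chromosome 15, with a peak 1.17 kb away (1.90). Without the 3 chromosomes 0 of 17 genes of the list had one. Of 24 mesoderm and cardiac genes 4 had a KO-only and 6 an FM-only peak, and 4 of 43 KO peaks were KO-only (9.30%). These were Foxc2, a forkhead factor of paraxial mesoderm, 2.67 kb away (2.09), Meox1, a somite homeobox gene, 26.8 kb away (2.20), Mef2c, a muscle factor, 62.7 kb away (2.10), and Kdr, the VEGF receptor of early blood vessel precursors, 70.1 kb away (2.71). Of 22 pluripotency genes 3 had a KO-only and 8 an FM-only peak, and 3 of 39 KO peaks were KO-only (7.69%). The 3 genes were Zfp42 (Rex1), a marker of naive cells, with a peak inside the gene (2.85), Fgf5, a marker of the primed epiblast, inside the gene (2.57), and Sall4, a zinc finger factor of pluripotent cells, 40.1 kb away (2.44).

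Of 21 neurectoderm genes 11 had a KO-only and 8 an FM-only peak, and 11 of 70 KO peaks were KO-only (15.7%). The paired-box genes Pax2 (2.38), Pax3 (2.58) and Pax7 (2.27) had a peak inside the gene, and Pax6, the eye and forebrain factor, had one 57.5 kb away (2.42). Zeb2, a zinc finger factor of neural and neural crest cells, had one inside the gene (2.91). Gbx2, which marks the anterior hindbrain, had the gene-end peak, 0.537 kb from the gene with a fold of 1.89. The eye field gene Rax had a peak 5.63 kb away (2.80), Zic1 2.21 kb away (2.65), the LIM homeobox genes Lhx5 6.23 kb away (2.40) and Lhx2 32.3 kb away (2.35), and the midbrain gene En2 42.4 kb away (2.39). Neurectoderm genes thus had KO-only peaks often, at a share of KO peaks close to that of all genes.

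**Figure D4:**
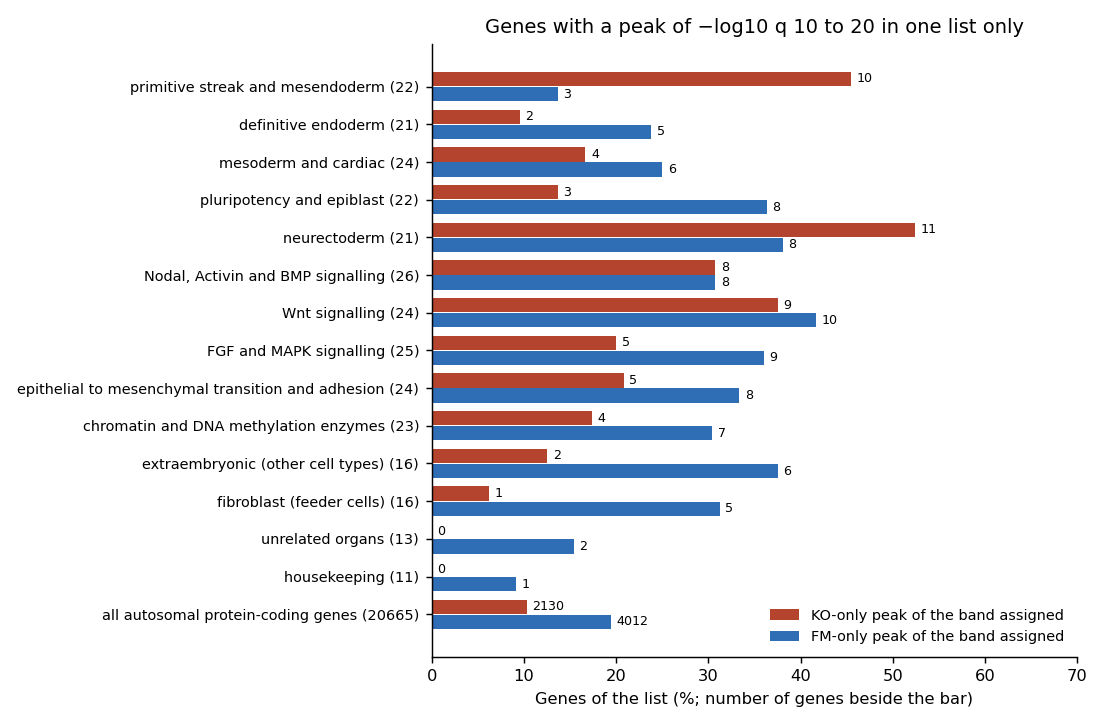
Percent of the autosomal genes of each list described here with a KO-only and with an FM-only peak of −log10 q 10 to 20 assigned, beside all autosomal protein-coding genes (10.3% KO-only, 19.4% FM-only). The streak list has 10 of 22 genes with a KO-only peak and 3 of 22 with an FM-only peak.

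Among signalling genes the receptors, effectors and inhibitors were all represented. Of 26 genes of Nodal, Activin and BMP signalling 8 had a KO-only and 8 an FM-only peak, and 9 of 53 KO peaks were KO-only (17.0%). The receptors Acvr1 (3.02) and Acvr1b (2.33) had a peak inside the gene, as did Smad4 (2.95), the common effector. Smad1, the BMP effector, had 1 peak 52.9 kb away (2.81). The inhibitory Smads, Smad7 with 2 peaks (2.25 and 2.00) and Smad6 with 1 peak 48.1 kb away (2.29), and the corepressor Ski (2.31) were also among them, as was Nodal, given above. Without chromosomes 12, 15 and 18, which hold Acvr1b, Smad4 and Smad7, 5 of 21 genes had a KO-only peak.

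Of 24 Wnt genes 9 had a KO-only and 10 an FM-only peak, and 9 of 41 KO peaks were KO-only (22.0%). Near receptors, peaks lay 9.57 kb from Fzd7 (2.63) and 4.17 kb from Fzd10 (1.89). The nuclear factor Tcf7 had 1 peak 1.04 kb away (2.04), and Tcf7l1 (2.91) and Tcf7l2 (2.45) had peaks inside the gene. Apc, part of the complex that degrades beta-catenin, had 1 intergenic peak (2.75). The secreted inhibitors Sfrp1, 23.6 kb away (2.68), and Notum, inside the gene (2.11), and the intracellular inhibitor Nkd1, inside the gene (2.32), completed the list.

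Of 25 FGF and MAPK genes 5 had a KO-only and 9 an FM-only peak, and 5 of 47 KO peaks were KO-only (10.6%). The receptor Fgfr2 had the highest fold of the listed genes, 3.11, inside the gene. The guanine nucleotide exchange factor Sos1 (2.68) and the ETS factor Etv5 (2.81), which FGF signals induce, also had peaks inside, and the inhibitor Spred2 had 1 peak 73.0 kb away (2.66). The ligand Fgf5, given above, was the fifth.

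The remaining lists had fewer genes with a KO-only than with an FM-only peak. In the list of epithelial to mesenchymal transition and adhesion 5 of 24 genes had a KO-only and 8 an FM-only peak, and 6 of 42 KO peaks were KO-only (14.3%). The 5 genes were Snai1, a repressor of E-cadherin, with 1 peak 9.69 kb away (2.17), the laminin chain genes Lamb1 with 2 (2.46 and 2.59) and Lamc1 with 1 (2.55), the ephrin ligand Efnb2 (2.61) and Zeb2. Of 23 chromatin genes 4 had a KO-only and 7 an FM-only peak, and 5 of 42 KO peaks were KO-only (11.9%). These genes were the methylcytosine dioxygenases Tet1 (2.35) and Tet2 (2.58), the BAF subunit Arid1b with 2 peaks (2.28 and 1.96) and the deacetylase Hdac2, 12.6 kb away (2.55).

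Lists of other cells and of housekeeping genes had 0 to 2 genes each with a KO-only peak, from few KO peaks. Of 16 extraembryonic genes 2 had a KO-only peak, Eomes and Gata6, which other lists also hold, and 6 an FM-only peak, and 3 of 27 KO peaks were KO-only (11.1%). Of 16 fibroblast genes, Thy1 had the single KO-only peak, 83.6 kb away (2.89), which was 1 of 15 KO peaks (6.67%), and 5 genes had an FM-only peak. Among 13 genes of unrelated organs, with 5 shared KO peaks, 0 had a KO-only and 2 an FM-only peak. Among 11 housekeeping genes, with 13 shared KO peaks, 0 had a KO-only and 1 an FM-only peak. The 2 extraembryonic genes are 12.5% of their list, close to the 10.3% of all protein-coding genes. With so few KO peaks, the 0 counts are not read as a difference from all genes.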

How the data were processed

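The data are 2 headerless peak lists in narrowPeak layout, KO and FM, from 6 ATAC-seq libraries. Per the submitters' processing notes, the authors used bcl2fastq, Bowtie2, SAMtools and MACS2 with build mm10, without versions. Pooling of libraries, any shift of reads for Tn5, and read filters are not stated in the sources. For each peak the authors deposited the fold (a ratio) of the summit over its local background, the −log10 p-value and the −log10 q-value. All are the authors' own values and only describe peaks within a list. The depth in reads is unknown.

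Of several rows for 1 interval, that with the highest −log10 p was kept. Overlap meant at least 1 bp. Pileups were solved from fold and p, and came back as whole numbers within 0.02 fragments for 99.5% of KO and 99.9% of FM peaks. Genes came from RefSeq on GRCm38.p6, the assembly that mm10 names. Promoter windows and hairpins on chromosome 18 were not used here. Members and lists were chosen with earlier results of these data known. The counts and genes of 1 list are not reported here. Genes named are those of the other lists with a KO-only peak and, outside the lists, the 12 with most KO-only peaks, ties by fold. The text also names the 12 highest folds at gene ends, the 12 highest overall and the 8 largest chains. All but those at gene ends were also ranked without chromosomes 12, 15 and 18. Intervals are Clopper-Pearson at 95%. No test was run. The overlap, chain and pileup functions were tested on simulated data. Python 3.11.15, pandas 2.3.3, scipy 1.17.1 and Biopython 1.88 were used.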

Additional observations from a re-analysis of the deposited data

Results flagged for a closer look

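The autosome rule left out KO peaks of the same strength on X, Y and unplaced sequence, where 51 had no FM peak, among them 30 of 169 on X, 11 of 14 on Y and 10 of 26 on unplaced sequence. The FM-only counts there were 27 of 211 on X, 1 of 8 on Y and 2 of 22 on unplaced sequence. These peaks lie outside the comparisons above, and there is no control sample to set them against.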

How the results depend on the processing

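No paired analysis was possible because each group is a single peak list that carries no replicate numbers, and for the same reason no library could be left out. Of 33 alternative values under 9 settings, 15 stayed within the interval of the value as reported, or within 1.5 times it for the count of list genes, and 18 did not. The KO-only share of 15.8% was 14.2% at −log10 q of 12 to 20, 10.3% when no FM peak was allowed within 1 kb, 14.7% without chromosomes 12, 15 and 18, 20.9% with intervals of several summits left out, and 20.9% when an overlap had to cover 50% of the peak. The gene-end share of 5.96% was 3.82% with no FM peak within 1 kb, 11.5% over all annotated genes and 19.8% within 5 kb of an end. The gene-body share of 42.5% was 39.4% at −log10 q of 12 and 49.1% over all annotated genes. The share with a neighbour within 50 kb, 24.7%, was 17.1% at −log10 q of 12, 19.0% with no FM peak within 1 kb, 21.9% without the 3 chromosomes, 22.3% without intervals of several summits and 13.3% within 20 kb. The median distance to an FM peak of 1925 bp was 2079.5 bp at −log10 q of 12 and 4386 bp with no FM peak within 1 kb, which removes the short distances by construction. With that rule 40 rather than 64 list genes had a KO-only peak, from fewer peaks. Some other shifts also follow from the changed definition. The 5 kb limit and the wider annotation can only raise the gene-end share, and the 20 kb limit can only lower the neighbour share. Barring FM peaks within 1 kb can only lower the KO-only share, and requiring 50% cover can only raise it. The cause of the remaining shifts was not tested.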
